A study of Mus musculus with 8 samples.

Results

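The comparison described here sets mouse retinal organoids exposed to dTAG-13 for 8 h against untreated organoids of the same line. Genes entered it when their symbol stood at a single locus of the deposited table, both conditions had a valid estimate, FPKM (fragments per kilobase of transcript, scaled to library depth) was at least 1 in 1 condition and the estimated fragment count was at least 10 in 1 condition. Of 35541 loci in the table, 28865 carried a single symbol found at no other locus, and 11299 genes met the whole rule. The rule did not use the direction or the size of any change.

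Polyadenylated RNA was sequenced from Rx:GFP organoids at day 6 of differentiation, grown in a serum-replacement medium that contained the compound labelled AGN. In every sample, untreated controls included, FKBP12F36V-HA was fused to the C-terminal end of METTL3 at both endogenous alleles, so no untagged group was part of the comparison. dTAG-13, at 125 nM, bridges FKBP12F36V to a ubiquitin ligase and so marks the tagged protein for degradation. The series had 8 samples in 4 groups (0, 1, 8 and 24 h), all of a single line; 4 samples enter here, 2 untreated and 2 treated for 8 h, and the labels do not say whether the untreated ones received solvent. The design text gives day 6, while the treatment protocol names both day 5 and day 6 and also a 2 h exposure, for which no sample was analysed here.

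METTL3 is the catalytic subunit of the nuclear complex that writes N6-methyladenosine (m6A) on messenger RNA, with METTL14 as its partner and WTAP as an adaptor. The mark is placed at adenosines in a short motif with the core GGACU, mostly in long exons and around stop codons, and less near exon junctions, where exon junction complexes cover the RNA. Readers of the YTHDF family bind methylated messages and can speed their decay, and m6A is known to act in the timing of neural and retinal progenitor differentiation.

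The authors pooled both replicates of a condition into 1 value per gene, with a lower and an upper bound. The error given beside each FPKM is that deposited interval. Spread between replicates is not visible in such values, so no mean ± SD, test or p-value is given for any gene. A gene was called when 2 conditions held: its FPKM ratio, after adding 0.1 to both values, reached 1.5-fold in either direction, and the intervals of the untreated and treated values lay apart. "Rose" and "fell" are used only of called genes, and changes are log2 ratios of FPKM, 8 h over 0 h, unless a fold is named. Estimated counts, rounded, summed to 32428500 at 0 h and 32386400 at 8 h, and the deposited SD of the log2 ratio had a median of 0.21.

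Before the results, the tissue label was set against marker genes. Of 12 retinal progenitor and eye field genes, 11 had a single locus under their own symbol. All 11 were above 1 FPKM in both conditions, with a summed level of 964 FPKM at 0 h and 1167 FPKM at 8 h. Six3 (49.5 FPKM at 0 h and 66.8 FPKM at 8 h) is in these sums. Its symbol also stood at a locus of several symbols, so it did not meet the rule and was not open to a call. Sox2 had entries at more than 1 locus and was left out. Rax, the eye field gene that drives the reporter, measured 49.7 FPKM (39.9 to 59.5) at 0 h and 67.1 FPKM (54.2 to 80.04) at 8 h, with overlapping intervals. Only Mab21l1 of this list was called, at 0.72, and it overlaps Nbea, another expressed gene. Of 6 pigment epithelium genes, Pmel (28.8 FPKM at 0 h), Mitf (19.2 FPKM) and Dct (11.5 FPKM) were measured and not called, while Tyr and Rpe65 were listed at 0 at 0 h; the 6 summed to 59.96 FPKM at 0 h and 77.1 FPKM at 8 h. Of 7 single-locus genes of postmitotic retinal neurons only Elavl4 (1.49 FPKM at 0 h) and Crx reached 1 FPKM, and Pou4f2 and Ptf1a were listed at 0 at 0 h. Some markers of other tissues were also present in untreated organoids: Krt18 (23.7 FPKM) and Krt8 (20.9 FPKM) of the surface ectoderm list, Kdr (21.9 FPKM) of mesoderm and Emx2 (20.7 FPKM) of telencephalon, none of them called. The 5 neural crest genes were all under 1 FPKM. All 8 pluripotency genes on the list were above 1 FPKM in at least 1 condition, with a summed level of 327 FPKM at 0 h and 290 FPKM at 8 h, and none was called. Crx, a photoreceptor precursor factor, was called higher, from 1.34 to 2.89 FPKM. In whole organoids, fewer cells of a type and less RNA per cell cannot be told apart, and a shift in cell makeup as a part of the results below was not tested.

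At 8 h, 435 of 11299 genes rose (3.85%) and 87 fell (0.77%), so that 522 genes (4.62%) changed. Of these, 131 rose and 27 fell by at least 2-fold. The median ratio over all 11299 genes was 0.01, and 51.6% of genes lay above 0. The changes were therefore mostly rises among a small share of genes, on a background centred near 0. Because FPKM is scaled to library depth, that centre cannot show whether the total amount of messenger RNA changed. Genes that rose had a median of 8.96 FPKM in untreated organoids, genes that fell 13.4 FPKM and all genes 14.3 FPKM.

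**Figure D1:**
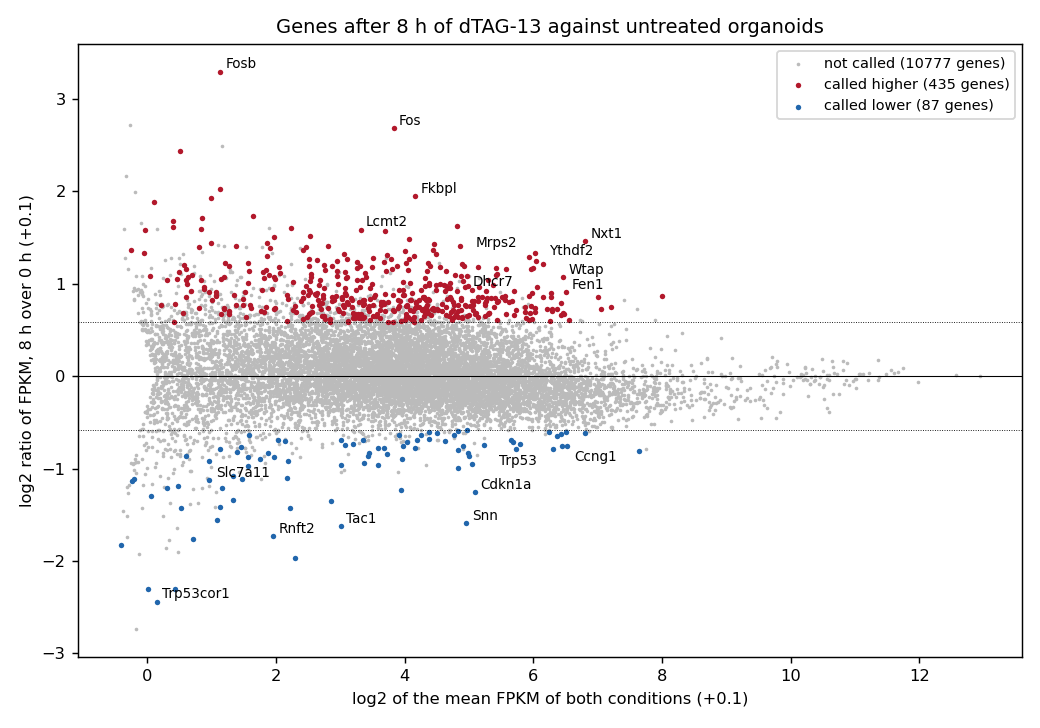
Each point is a gene, with the log2 of its mean FPKM over both conditions on the x axis and the log2 ratio of FPKM, 8 h over 0 h, on the y axis; dotted lines mark 1.5-fold. The 435 genes called higher (red) outnumber the 87 called lower (blue), and Fosb and Fos lie at the top.

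The degron acts on the METTL3 protein, which was not measured here. The Mettl3 transcript measured 19.4 FPKM (10.7 to 28.1) in untreated and 19.4 FPKM (10.8 to 28.01) in treated organoids. Its ratio was 0.00, with intervals that overlap almost whole, so its level gives no check of the treatment; Mettl3 also overlaps the expressed gene Tox4.

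Before the values, short stretches of message are shown for 9 of the genes that changed, because the results below are later ordered by exon structure and by this motif. Each line is 25 bases of the reference transcript, written as DNA 5′ to 3′, with the DNA form of the m6A core, GGACT, in capitals. They come from GENCODE M21 on GRCm38 (mm10), and each is the motif nearest the stop codon that lies in the coding or 3′ untranslated part within a single exon. A match shows only that these letters are present, and methylation was not measured.
Fkbpl: gctggctcggGGACTgcgcaagatg
Lcmt2: aataaagaatGGACTtgatatattt
Mblac1: ttgcttgactGGACTccagtcagga
Nxt1: tccggttccaGGACTgggccagcta
Ythdf2: aagaaaattaGGACTttttttctta
Wtap: agaatggcttGGACTcaaatgtaaa
Fos: tgggcctcaaGGACTtgcaagcatc
Snn: tggagcccgtGGACTggcttgataa
Cdkn1a: aaaatgagtaGGACTttggggtctc

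The first 7 genes rose and the last pair fell. In Fkbpl (chr17:34646270-34646294, plus strand), Nxt1 (chr2:148675738-148675762, plus strand) and Wtap (chr17:12967490-12967514, minus strand) the stretch is coding sequence. In Lcmt2 (chr2:121138520-121138544, minus strand), Mblac1 (chr5:138195173-138195197, plus strand), Ythdf2 (chr4:132186832-132186856, minus strand), Fos (chr12:85476602-85476626, plus strand), Snn (chr16:11072975-11072999, plus strand) and Cdkn1a (chr17:29099839-29099863, plus strand) it lies in the 3′ untranslated region. The motif in Fkbpl lies 1038 bases from the nearest exon junction, that in Snn 756 bases and that in Ythdf2 104 bases, while the Lcmt2 and Mblac1 transcripts have no junction. The motif is common: 92.3% of 10930 protein-coding genes measured hold at least 1 GGACT on the transcript strand, against 94.7% of 432 protein-coding genes that rose and 92.3% of 78 that fell. Its presence alone hardly separated these groups.

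The highest ratio among the 522 genes belonged to Fosb, and with Fos it marked the immediate early genes, a set of transcription factors induced quickly by growth factor and stress signals. Fosb measured 0.304 FPKM (0.13 to 0.47) in untreated and 3.86 FPKM (2.91 to 4.80) in treated organoids, a 9.81-fold ratio. Fos measured 3.73 FPKM (2.54 to 4.91) and 24.5 FPKM (18.1 to 30.8), a 6.42-fold ratio. Both encode subunits of AP-1, and in both the treated interval lay wholly above the untreated one. Egr1, a zinc finger factor of the same early response, rose from 6.54 FPKM (5.11 to 7.97) to 16.1 FPKM (12.7 to 19.4). Jund, an AP-1 subunit encoded by a gene without introns, rose by 0.68 and overlaps the expressed gene Gm11175. These were the 4 genes called higher of 23 measured on the list (17.4%), none fell, and the list's median was 0.12, so most of the other early genes stayed near the level of all genes.

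The 12 highest called genes with at least 1 FPKM in both conditions were Fos and 11 others, mostly genes with few coding exons and unrelated functions. Fkbpl, a relative of the immunophilins that acts as a co-chaperone, rose from 7.30 FPKM (5.45 to 9.16) to 28.4 FPKM (22.6 to 34.2). Nxt1, a cofactor of messenger RNA export, was the most abundant of them and rose from 59.2 FPKM (47.4 to 71.0) to 163 FPKM (132 to 194). Lcmt2, an enzyme of transfer RNA modification, rose from 4.88 FPKM (2.96 to 6.80) to 14.8 FPKM (10.7 to 18.9), and it overlaps the expressed gene Adal. All 3 have a single coding exon. Aunip, which binds the mitotic kinase Aurora A, rose by 1.63, and Dyrk3, a kinase that dissolves RNA-rich condensates, by 1.49. The other 6 were Ccdc96 (1.74), Tnfaip8l1 (1.60), the small GTPase gene Rasl11a (1.57), Prr7 (1.52), Mblac1 (1.51) and the potassium channel subunit gene Kcng1 (1.45). Of the 12, Fkbpl, Ccdc96, Tnfaip8l1, Lcmt2, Mblac1 and Nxt1 have 1 coding exon.

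**Figure D2:**
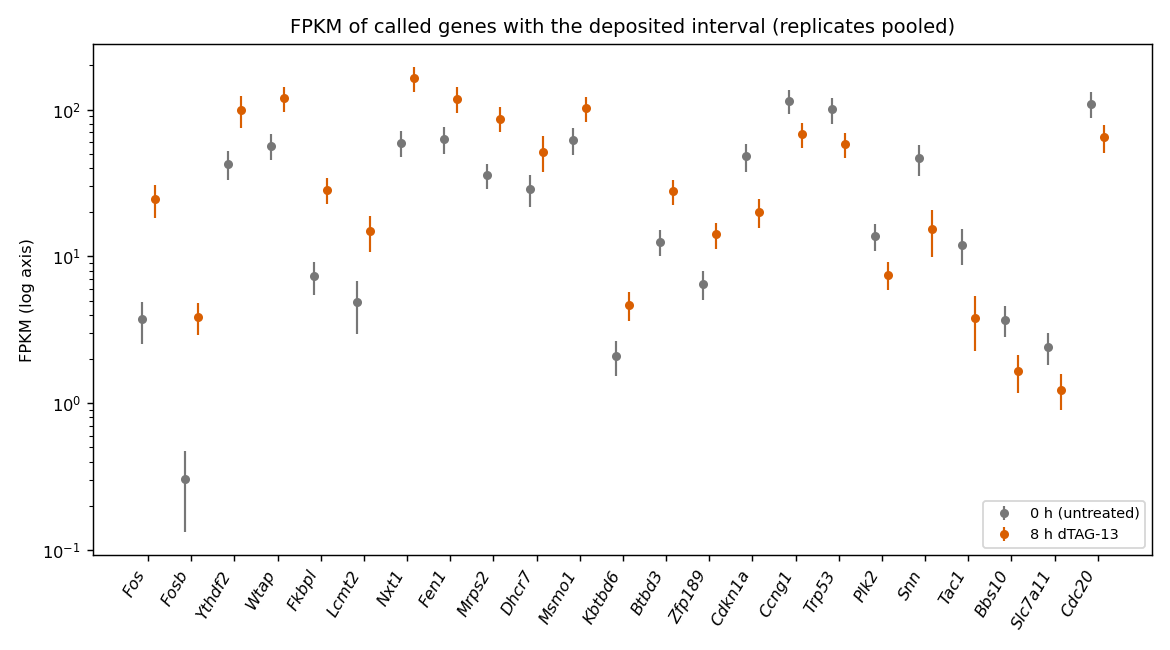
FPKM on a log axis for 23 called genes, grey for untreated and orange for 8 h of dTAG-13; points are the pooled values and bars the deposited intervals. For each gene the 2 bars do not overlap, as the call requires; Fosb is lowest at 0 h, at 0.304 FPKM.

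Among the genes of the m6A machinery, 4 of 16 measured rose (25%), none fell, and the median was 0.13. They belong to the writers and the readers. Of the writer complex, Wtap, the adaptor that holds the complex in nuclear speckles, rose from 56.9 FPKM (45.4 to 68.4) to 119 FPKM (95.8 to 143), and Cbll1, which encodes the associated protein HAKAI, rose by 0.75. Of the cytoplasmic readers, Ythdf2, which recruits deadenylation to methylated messages, rose from 42.6 FPKM (33.2 to 52.0) to 98.7 FPKM (74.5 to 123), and Ythdf1 rose by 0.96. The treated values of Wtap and Ythdf2 were both more than 2-fold the untreated ones, with intervals well apart. The catalytic partner Mettl14 lay at -0.05, and the demethylase genes Fto and Alkbh5 at 0.08 and 0.18, none of them called; these 3 and Ythdf3 (0.39, not called) were picked out after their values were seen.

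Of the 48 lists with a measured gene, the one with the most genes that rose held genes for BTB-domain proteins, many of which serve as substrate adaptors of cullin ubiquitin ligases and others as zinc finger repressors. Of 84 measured, 15 rose (17.9%), none fell, 72 lay above 0 and the median was 0.33. Btbd3, which orients dendrites of developing neurons, rose from 12.6 FPKM (10.1 to 15.05) to 27.8 FPKM (22.5 to 33.2). Kbtbd6, a CUL3 adaptor gene without introns in its coding part, rose from 2.09 FPKM (1.53 to 2.65) to 4.69 FPKM (3.62 to 5.76). Klhl36 (1.10), Zbtb3 (1.06), Kbtbd2 (1.00) and Kctd6 (0.93) came next. The 15 had a median of 2 coding exons and 12 of them had at most 3, against a median of 4 over the list. RING, TRIM and F-box ubiquitin ligase genes followed with 12 of 140 called higher (8.57%), none lower, and a median of 0.06. Fbxo30 (0.97), March9 (0.94), Rnf146 (0.90, overlapping Echdc1) and Trim45 (0.88) led that list; Rnf146 encodes a ligase that recognises poly-ADP-ribose. Numbered Zfp genes, most of them Krüppel-type zinc finger factors, gave 13 of 276 called higher (4.71%) and 3 called lower (1.09%), close to the shares over all genes, while their median was 0.22 and 210 of the 276 lay above 0. Zfp189 rose by 1.11 and Zfp41 fell by 0.95.

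Genes of the cholesterol synthesis list had the highest median of the 48 lists with a measured gene, at 0.39, and 21 of 22 lay above 0. The call was passed by 4 of the 22 (18.2%), all higher, among them Dhcr7 (0.84) and Msmo1 (0.73). Dhcr7, the last enzyme of the route to cholesterol, measured 28.8 FPKM (21.5 to 36.1) in untreated and 51.8 FPKM (37.8 to 65.8) in treated organoids. Msmo1, a sterol methyl oxidase, measured 61.8 FPKM (48.7 to 74.8) and 102 FPKM (81.9 to 123). The regulators Srebf2 and Srebf1 lay at 0.02 and -0.15 and were not called (both picked out after their values were seen). The 4 genes that rose were not those with few exons: their median was 9.5 coding exons, against 9 over the list.

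Signalling pathways of the developing eye gave few calls each. Every gene called in them was higher, beside 83.3% of all called genes, and only 0.77% of all genes fell. In the Notch pathway, which keeps progenitors undifferentiated, 3 of 26 rose (11.5%), none fell, 22 lay above 0 and the median was 0.24. They were the target gene Hey1, from 4.25 FPKM (3.17 to 5.33) to 8.03 FPKM (6.24 to 9.82), the coactivator gene Maml1 (0.68) and the receptor gene Notch2 (0.59). In the Hedgehog pathway 3 of 13 rose (23.1%), none fell, and the median was 0.18: Disp1, which releases the ligand, by 0.89, and the transcription factor genes Gli3 and Gli2 by 0.68 and 0.67. The BMP and TGF-beta list gave 1 of 33 (3.03%), the decoy receptor gene Bambi (0.74). The FGF-ERK feedback list gave 1 of 20 (5%), the phosphatase gene Dusp14 (1.14). Both shares are near the 3.85% of all genes. None of 37 Wnt pathway genes was called, with a median of 0.12. Among developmental transcription factors 4 of 86 rose (4.65%, near the 3.85% of all genes), Klf8, Hey1, Nr2f2 and Foxo1, and the median was 0.22; Klf8 rose by 1.08 in FPKM but by only 0.24 in estimated counts.

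Trp53, the gene of the stress-responsive tumour suppressor p53, and several of its targets fell. Trp53 measured 100.2 FPKM (80.2 to 120) in untreated and 58.1 FPKM (46.6 to 69.5) in treated organoids. Of 25 measured target genes 4 fell (16.0%) and none rose, and the median was -0.23, with 17 below 0. Cdkn1a, the cyclin-dependent kinase inhibitor p21, fell from 48.1 FPKM (37.5 to 58.6) to 20.1 FPKM (15.6 to 24.5). Ccng1, encoding cyclin G1, fell from 115 FPKM (93.6 to 137) to 68.0 FPKM (55.2 to 80.8). The intervals of all of these lay apart by the call rule. Plk2, a polo-like kinase gene, fell by 0.86. Trp53cor1, the long noncoding RNA next to Cdkn1a, had the lowest ratio of the list, -2.44, from 1.77 FPKM (1.32 to 2.23) to 0.245 FPKM (0.12 to 0.37). Not every target moved this way: Tigar lay at 0.55 and Mdm2 at -0.28, neither of them called (both picked out after their values were seen).

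The 12 lowest called genes with at least 1 FPKM in both conditions had varied functions. Tac1, the precursor of the neuropeptide substance P, fell from 12.04 FPKM (8.69 to 15.4) to 3.83 FPKM (2.26 to 5.41), and Slitrk1, a neuronal transmembrane protein gene without coding introns, fell by 1.42. Snn, a small mitochondrial membrane protein gene, fell from 46.6 FPKM (35.4 to 57.8) to 15.4 FPKM (9.95 to 20.8), and its locus overlaps the expressed genes Litaf and Txndc11. Rnft2, which encodes a membrane RING finger protein, fell by 1.73, and Slc31a2, of the copper transporter family, by 1.34. Hist1h1c, a linker histone gene, fell by 1.21, the only 1 called of 13 replication-dependent histone genes measured. Such histone messages lack a poly(A) tail, so poly(A) selection limits what their values stand for. Bbs10 and Bbs12, chaperonin-like proteins that assemble the BBSome of the cilium, fell by 1.12 and 1.10; they were the only 2 called of 36 centrosome and cilium genes, and Bbs12 overlaps Cetn4. The remaining 4 were Cdkn1a, Gm10762 (which fell by 1.43 and overlaps Zc3h6), Fam212b (by 1.13) and Mylpf, a myosin light chain gene whose estimated counts went down by much less than its FPKM.

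Several lists of housekeeping function had low medians and few or no calls. Aminoacyl-tRNA synthetases, which charge transfer RNAs, had the lowest median of all lists, -0.35; 26 of 34 lay below 0 and none was called. Proteasome subunits had a median of -0.33 with 30 of 34 below 0 and a single call, Psmd6, at -0.64. Among DNA replication genes 33 of 37 lay below 0 and the median was -0.28, while Fen1, the flap endonuclease gene, rose from 63.1 FPKM (49.7 to 76.4) to 118 FPKM (94.8 to 142). Fen1 has 1 coding exon and overlaps the expressed gene Tmem258. Glycolysis genes had a median of -0.27 with 14 of 15 below 0 and none called, and respiratory chain genes -0.18 with 63 of 73 below 0 and none called. For most genes of these lists the shift was smaller than the 1.5-fold that a call needs and of the order of the deposited SD of a single ratio, so apart from Psmd6 and Fen1 no single gene of these lists is described as changed. Cytosolic ribosomal protein genes had a median of -0.01 and none of 78 called, and SR and splicing regulator genes -0.14 and none of 32 called.

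Mitochondrial ribosomal protein genes had a median of 0.01 over 74, and 4 of them rose (5.41%, near the 3.85% of all genes) and none fell. Mrps2 rose from 35.6 FPKM (28.7 to 42.5) to 86.8 FPKM (70.3 to 103), Mrpl46 by 1.19, Mrpl43 by 1.11 and Mrpl16 by 0.86. Mrps2 and Mrpl46 have 4 coding exons and Mrpl43 has 3. Mrpl46 overlaps the expressed gene Mrps11 and Mrpl43 overlaps Twnk, so reads of these pairs may have been shared in counting.

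Other lists gave few calls in number. The share that rose was 11.4% of ion channel entries, 10.5% of clock genes and 7.69% of chaperone genes, beside 3.85% of all genes. Falls made up 9.52% of stress response genes and 5.26% of clock genes, beside 0.77% of all genes. They made up 3.85% of chaperone genes and 3.33% of mitosis genes. Each of these shares rests on the few genes named below. In the circadian clock, the repressor genes Nr1d2 and Nfil3 rose by 1.00 and 0.97, and the activator gene Arntl fell by 0.82, out of 19 measured. In the integrated stress response, Slc7a11, which imports cystine, fell from 2.43 FPKM (1.83 to 3.02) to 1.24 FPKM (0.90 to 1.58), and Phgdh, the first enzyme of serine synthesis, by 0.62; none of 21 rose. Of 26 chaperone genes, Dnajb1 (0.67) and Bag3 (0.63) rose and Hspb1 fell by 0.69. Of 30 mitosis genes only Cdc20, an activator of the anaphase-promoting complex, was called; it fell by 0.75 and overlaps Elovl1. Among 35 ion channel entries 4 rose: Kcng1, Kcnj4 (1.04), Kcnk1 (0.79) and the antisense noncoding RNA Kcnq1ot1 (0.59), which matched the list by its symbol and encodes no channel; its estimated count ratio was 0.19. Single rises came from lists whose share that rose was near or under the 3.85% of all genes. They were Cbx2 (1.17), a Polycomb subunit gene (1 of 35), and Smg8 (0.86), of nonsense-mediated decay (1 of 24). Exosc4 (0.72), of the exosome and overlapping Oplah, was 1 of 30. Arid1b (0.74), of the BAF chromatin remodeller, was 1 of 59. Eif1a (0.86), a translation initiation factor gene with 1 coding exon, was also 1 of 59. In its list Eif2b3 fell by 0.62 and 43 genes lay below 0. Neat1, the noncoding RNA that scaffolds paraspeckles, fell by 0.97. None of the 18 clustered protocadherin genes on the lists met the rule for measured genes.

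**Figure D3:**
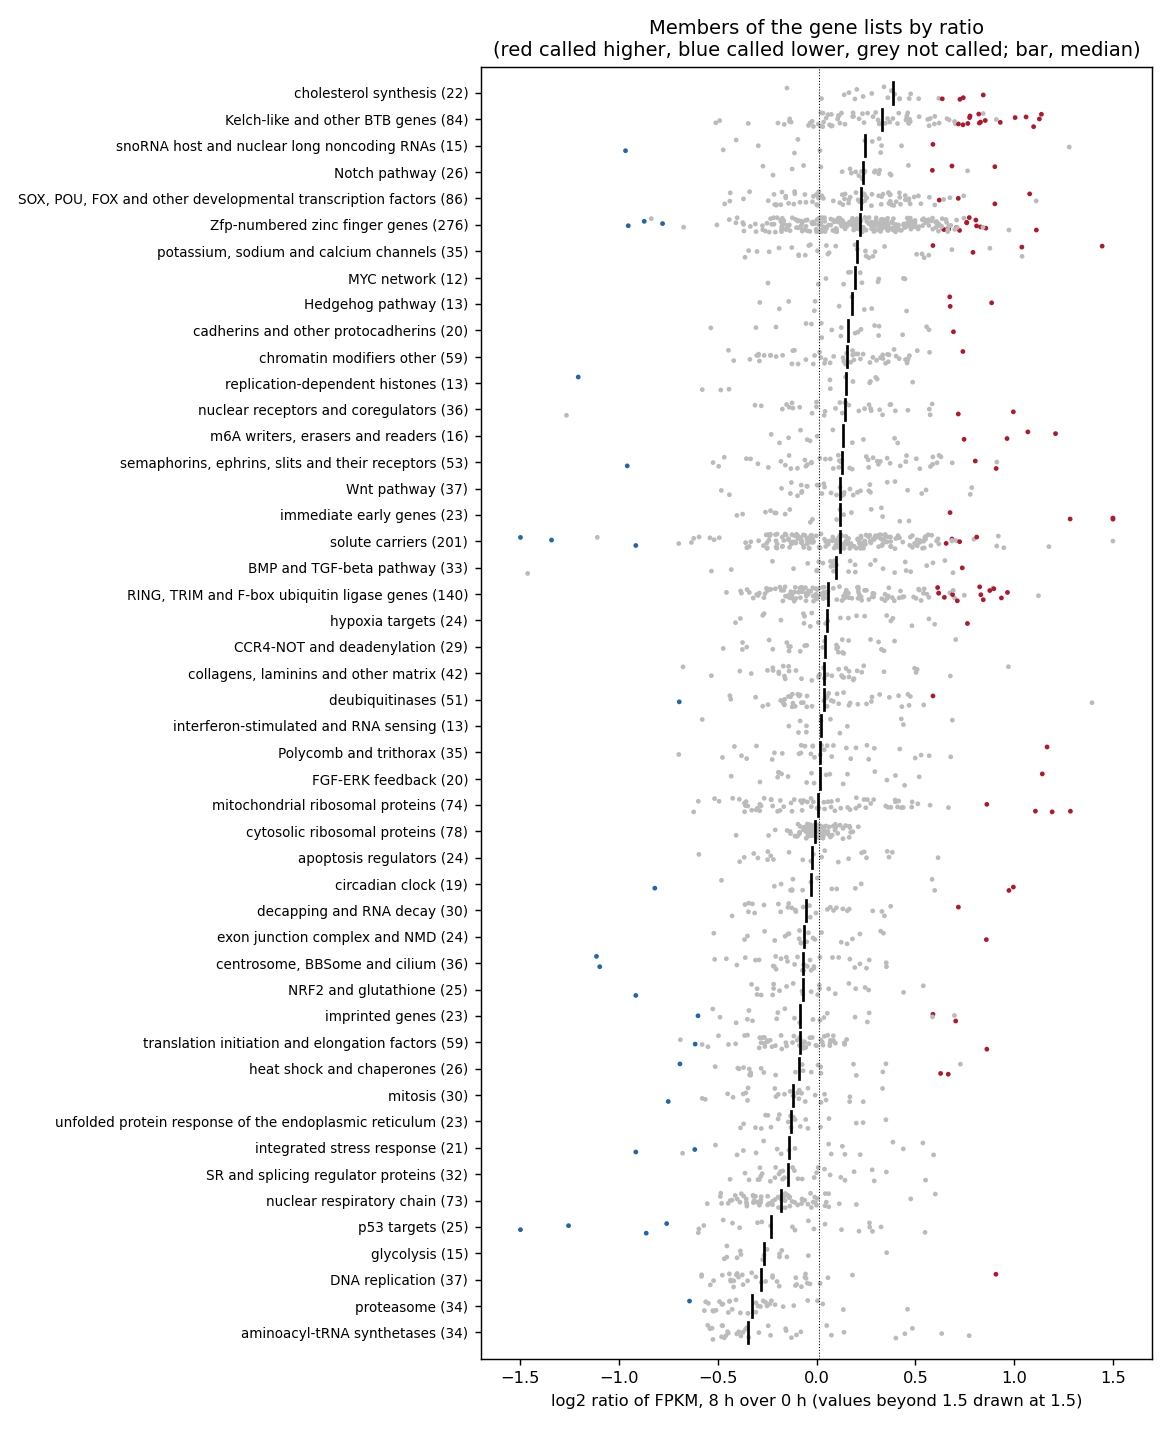
Log2 ratios of FPKM, 8 h over 0 h, for every measured gene (points) of the lists with at least 10 measured genes, ordered by median (black bar), with values beyond 1.5 drawn at 1.5; numbers in brackets are the genes measured and the dotted line is the median over all genes. Cholesterol synthesis (median 0.39) and BTB genes (0.33) are at the top, and aminoacyl-tRNA synthetases (-0.35) and the proteasome (-0.33) at the bottom.

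Families were also formed from symbols alone, by the letters before the first digit, which gave 128 families of at least 10 measured genes. Those with the largest share called higher were Prr (2 of 10), Zkscan (2 of 11), Zcchc (2 of 11), Mfsd (2 of 11), Kctd (3 of 17), symbols that begin with B and a digit (4 of 25), Trim (4 of 26) and Klhl (3 of 22); the B symbols belong to unrelated genes. Zkscan zinc finger genes had the highest median of these, 0.46, and Zkscan6 and Zkscan17 rose by 1.04 and 0.99. Among Mfsd genes, which encode transporter-like membrane proteins, Mfsd5 rose from 17.9 FPKM (14.2 to 21.6) to 41.5 FPKM (33.4 to 49.5). The B symbols included B3galt4 (1.44), B3gnt5 (0.66) and B4galt4 (0.61), all glycosyltransferase genes, and B9d2 (0.75). The largest shares called lower were in Trp (2 of 10), Smim (3 of 16), Psmd (1 of 12), Aldh (1 of 13) and Hist (1 of 13). The Trp symbols called were Trp53 and Trp53cor1. Smim genes, for small membrane proteins, went both ways: Smim10l2a, Smim3 and Smim20 fell by 1.08, 0.76 and 0.71, and Smim15 rose by 0.72. So did aldehyde dehydrogenase genes: Aldh1a3, which makes retinoic acid in the ventral retina, fell from 37.7 FPKM (30.4 to 45.1) to 22.3 FPKM (17.8 to 26.7), while Aldh1b1 rose by 1.30. Counts of 1 to 4 per family are too few to rank families among themselves.

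Many of the genes that rose shared a low number of coding exons, a feature that neither the rule nor the call used. Of 629 protein-coding genes with a single coding exon in the reference transcript, 124 rose, or 19.7% (95% Wilson interval 16.8% to 23.0%). The share was 13.3% with 2 coding exons, 8.94% with 3, 5.20% with 4, 3.59% with 5 to 6, 2.09% with 7 to 9, 1.36% with 10 to 14 and 0.832% (0.555% to 1.25%) of 2764 genes with 15 or more. The median ratio went the same way, from 0.39 with 1 coding exon to -0.04 with 15 or more. Wilson intervals here treat genes as independent, which they are not, and cover counting error only. The share that fell was 3.02% of genes with a single coding exon (19 of 629), beside 0.77% of all genes; Slitrk1, Snn and Zfp41 are among the 19. Over genes, the ratio had a Spearman correlation of -0.24 with the number of coding exons (n = 10930 genes of the same libraries, with no p-value because genes are not replicates).

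A related measure was the share of a transcript's bases lying over 150 bases from any exon junction. Of 1392 genes with under 20% of their bases so placed none rose (Wilson upper bound 0.275%), and 15 fell. The share that rose was 0.487% at 20 to 40%, 2.40% at 40 to 60%, 5.82% at 60 to 80% and 10.8% (9.44% to 12.3%) of 1807 genes at 80 to 100%. Falls were most frequent at both ends, with 1.08% under 20% and 1.38% at 80 to 100% (25 of 1807). In between, the share that fell was 0.443% at 20 to 40%, 0.481% at 40 to 60% and 0.542% at 60 to 80%. Across genes this measure had a Spearman correlation of 0.36 with the ratio. Nearest in size were the number of bases so placed (0.31), GGACT motifs so placed (0.28) and last exon length (0.25). Coding exon number (-0.24), transcript length (0.16) and GC content (0.06) followed. AU-rich ATTTA motifs per kilobase of 3′ untranslated region had 0.03. These are descriptions of 1 comparison, and the measures are linked to each other. Last exons were long in genes that rose, with a median of 2045 bases, against 1361 bases over all genes and 1127.5 bases in genes that fell. The 3′ untranslated region as a whole was not longer: 1038.5 bases in genes that rose against 1040.5 bases over all genes, and 620.5 bases in genes that fell.

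**Figure D4:**
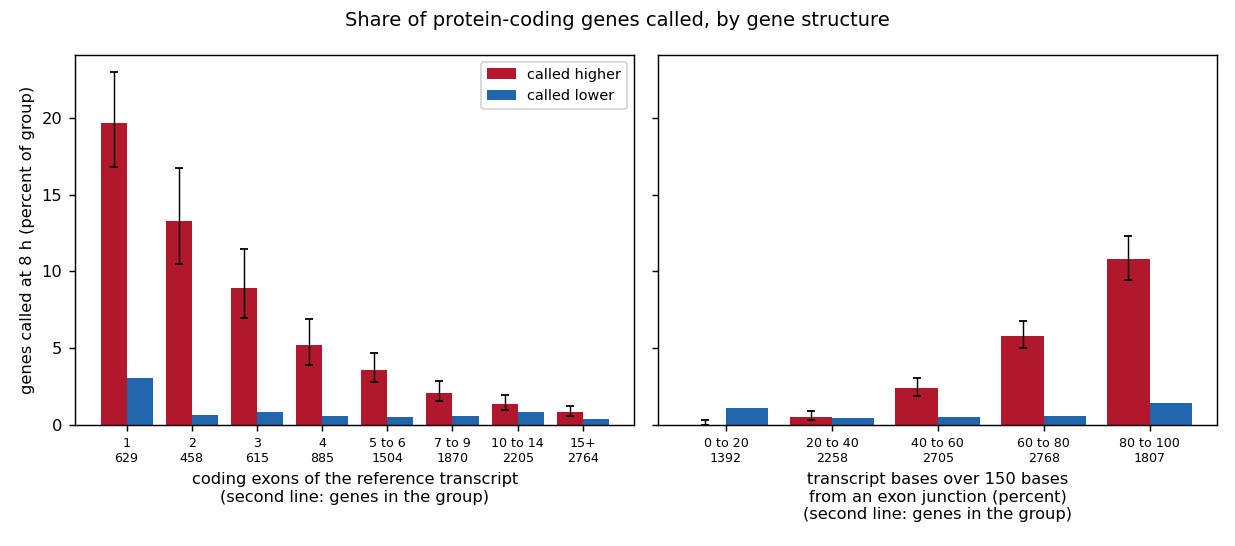
Percent of protein-coding genes called higher (red, with 95% Wilson intervals) and lower (blue) at 8 h, by coding exons (left) and by the percent of transcript bases over 150 bases from an exon junction (right). The share called higher falls from 19.7% at 1 coding exon to 0.832% at 15 or more, and climbs from 0 to 10.8% across the right panel.

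The GGACT motif was then counted only where it lay over 150 bases from any junction. Genes that rose held a median of 3 such motifs, against 1 over all genes and 1 in genes that fell, and 87.7% of genes that rose held at least 1, against 70.8% of all and 65.4% of those that fell. The share that rose was 1.66% of 3190 genes with none and 9.91% of 232 genes with 9 or more. Both exon number and motif count were then held: among genes with 1 coding exon the share that rose was 13.4% with no such motif (13 of 97), 18.7% with 1 to 2 and 22.5% with 3 or more. Among genes with 10 or more coding exons it was 0.209% (3 of 1436), 0.784% and 2.28%. In each of these 3 motif groups the share that rose was higher with 1 coding exon than with 10 or more. Falls also became more frequent with more motifs among genes with 1 coding exon: 0 of 97, 6 of 225 and 13 of 307. Among genes with 10 or more coding exons, falls numbered 17 of 1436, 6 of 2041 and 6 of 1492. Genes that rose also had more bases over 150 bases from a junction, a median of 2341.5 against 1530 over all genes, and the part of that length in the motif counts was not tested. Exceptions are to be found among the named genes. Rasl11a and Mrpl16 rose with no GGACT in the reference transcript, while Slitrk1, Cdkn1a and Zfp41 fell with 5, 4 and 10 motifs far from a junction.

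Notch2, Mfap1a and Mios were just inside on the upper side and Ctnnbl1, Thoc5 and Impact on the lower, all with ratios of 0.59 to 0.60 in size. Gdpgp1, Nr1d1 and Kank4 (each 0.58) and Prpf38a, Synpo2l and Ppargc1a (each -0.58) were just outside the fold. Of these 6 only Prpf38a had intervals that lay apart and missed the call by the fold alone; the intervals of the other 5 overlapped. On each side, the ratios just inside and just outside the fold differed by far less than the median deposited SD.

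The named genes were lastly set beside 1 h and 24 h of dTAG-13, from separate tables that reuse the same 0 h samples, so the 3 ratios of a gene are not independent. By the same rule, 1 of 11152 genes rose (0.00897%) and 23 fell (0.206%) at 1 h, and 462 of 11302 rose (4.09%) and 176 fell (1.56%) at 24 h. Fos had ratios of 1.37, 2.68 and -0.26 at 1, 8 and 24 h, and it was the single gene called higher at 1 h. Fosb had 2.07, 3.29 and -0.42, with a call at 8 h only. Nxt1 had 0.17, 1.46 and 1.54, Ythdf2 0.42, 1.21 and 0.97, and Dhcr7 -0.18, 0.84 and 0.82, each called at 8 and 24 h. Among genes that fell at 8 h, Cdkn1a had -0.26, -1.26 and -0.87, Tac1 -0.36, -1.63 and -3.37, and Slc7a11 0.04, -0.92 and -2.69. Ppp1r3c, a glycogen-targeting subunit gene on the hypoxia list, had -1.53, 0.76 and 1.53, with a call at each time and the opposite sign at 1 h. Bbs10 was called lower at all 3 times, with -1.22, -1.12 and -0.92. Differences between times were not tested.

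**Figure D5:**
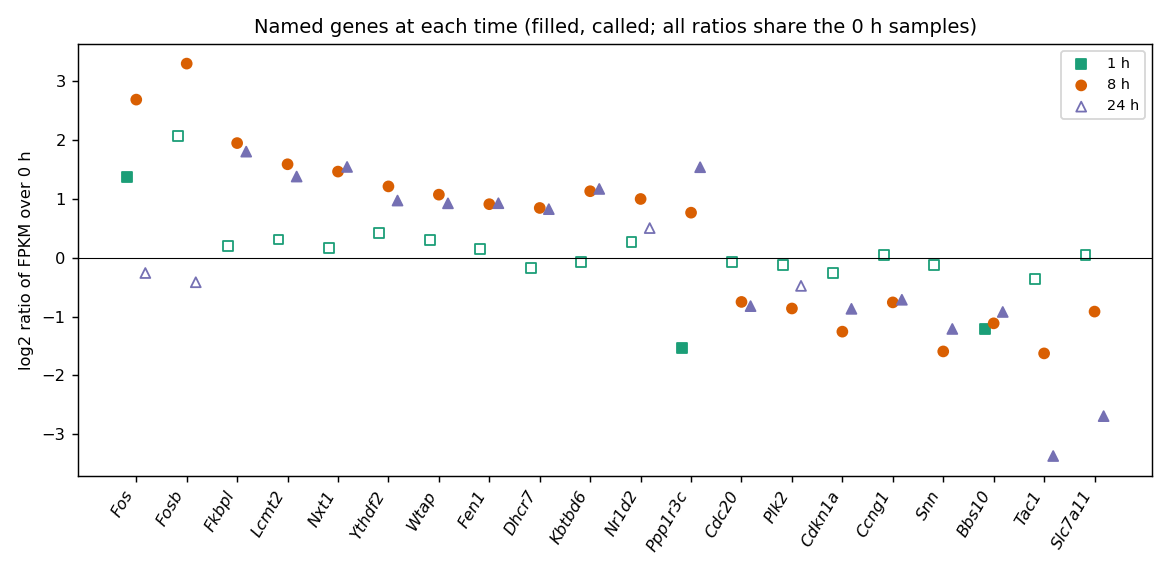
Log2 ratios of FPKM over 0 h for 20 named genes at 1 h (squares), 8 h (circles) and 24 h (triangles); filled symbols are called, and all ratios share the 0 h samples. Fos and Fosb stand high at 8 h (2.68 and 3.29) and below 0 at 24 h, while Nxt1 and Ythdf2 are called at both 8 and 24 h.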

How the data were processed

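Per the submitters' processing notes, Cufflinks 2.2.1 and Cuffdiff were used with the mm10 build; their settings, the strandedness of counting and the level of the interval are not given in the sources used here. The authors deposited FPKM with lower and upper bounds, and estimated counts with a variance, with 1 column per condition that pools 2 replicates per the file headers. The variance values were deposited by the authors and used for the deposited SD of a log2 ratio. They also gave the coefficient of variation of a count and the intervals where estimated counts were the measure. Replicates could not be compared, and labels do not say whether they were separate cultures.

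Ratios were taken within the 8 h table as log2 of FPKM plus 0.1, which understates changes of low genes. A gene was called at 1.5-fold with non-overlapping intervals. A count of 3 was taken as the floor, and no called gene was at or under it. Symbols were matched to GENCODE M21 for 11216 genes (99.3%), with a reference transcript chosen by APPRIS rank and then coding length. Overlap with another expressed gene (1989 genes, 38 of them called) was noted from that annotation. Unnamed loci held 1.03% of the counts at 0 h. The genes, the 49 lists and the rules were chosen with earlier results of these data known.

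Genes were named by rule: Mettl3; the 12 highest and 12 lowest called with FPKM of at least 1 in both conditions; up to 6 called per list and 4 per named family; 3 on each side of the fold threshold; cell type markers; and the 5 called genes with the largest gap between FPKM and count ratios. Some genes that this rule names are not reported here. Python 3.11.15, pandas 2.3.3, numpy 2.4.6, scipy 1.17.1 and matplotlib 3.10.9 were used. Alternatives changed the pseudocount, the filters, the measure, the fold, the interval rule, centring, overlapping genes, the uniqueness of symbols and the choice of transcript.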

Additional observations from a re-analysis of the deposited data

How the results depend on the processing

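No paired analysis was possible because the deposited columns pool the replicates, which also means that no replicate could be left out. Under 13 other settings, 1 of them (symbols unique among single-name loci only) chosen after seeing the data, rises outnumbered falls, and the share of called genes that were higher ran from 75.3% (fold alone) to 86.4% (FPKM at least 5). The counts moved with the threshold: at 2-fold 158 genes were called (131 higher, 27 lower), at 1.5-fold without intervals 1289 (971 and 318), and at 1.5-fold with 2 deposited SDs of the log ratio 1017 (807 and 210). With FPKM at least 5, 57 genes were lower. The share of genes with 1 coding exon that rose was 24.6% with FPKM at least 5, 14.6% without an FPKM filter, 8.90% at 2-fold, 33.5% by fold alone and 29.3% with 2 SDs. That of genes with 10 or more coding exons, 1.07% as reported, was 0.745% with a pseudocount of 1, 1.55% from estimated counts, 0.181% at 2-fold, 3.16% by fold alone and 2.80% with 2 SDs. At 2-fold, 26 symbol families exceeded the share over all genes, against 51. The number of called genes whose FPKM and count ratios differed by at least 1.5-fold, 8 as reported, was 25 with a pseudocount of 1, 3 with FPKM at least 5, 15 without an FPKM filter, 56 by fold alone and 42 with 2 SDs.

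Estimated counts turned the direction of Gm2004 (-0.74) and Tmem200a (0.73), which were then not called. Of 139 named genes called, estimated counts also ended the call of 22 others. A pseudocount of 1 ended the call of 15, 2-fold that of 86 and centring that of 5. At 2-fold no gene of the cholesterol, Notch, Hedgehog or RING, TRIM and F-box lists was called; 5 BTB genes, 1 numbered Zfp gene, 3 immediate early genes and 2 m6A genes were higher, and 2 p53 targets lower. Leaving out overlapping genes removes by design every gene named above with an overlap, among them Fen1, Lcmt2, Jund, Mrpl43, Mrpl46, Bbs12 and Cdc20. Of the 9310 genes that remain, 484 were called. Of 48 list medians, 6 near 0 changed sign: those of CCR4-NOT, clock, cytosolic ribosomal, deubiquitinase, interferon and mitochondrial ribosomal genes; the cause was not tested. The median coefficient of variation of a count was 10.46% at 0 h over all genes, which limits the size of change that can be called.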

Other observations

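For a few called genes the FPKM and the estimated count of the same table disagreed, and these are given as values with no explanation. Of 522 called genes, 508 were also past 1.5-fold in the same direction by estimated count, and 8 had FPKM and count ratios that differed by at least 1.5-fold. Gm2004 had 0.343 FPKM at 0 h and 2.30 FPKM at 8 h, with estimated counts of 17.1 and 9.82. Tmem200a had 2.42 and 0.642 FPKM, with estimated counts of 37.5 and 63.1. In both, the count went the other way from the FPKM. Slc5a11, a sodium-coupled inositol transporter gene, had an FPKM ratio of -2.30 and a count ratio of -0.39; Entpd1, which encodes the ectonucleotidase CD39, had 1.40 and 0.36; and Mylpf had -1.23 and -0.22. FPKM in such tables is summed over isoforms of different length, and the isoform values were not used here.

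Noncoding genes were few in number among the calls, and in the classes given here more fell than rose. Over all 11299 genes it was the reverse, with 435 that rose (3.85%) and 87 that fell (0.77%). Of 158 long intergenic noncoding genes measured, 1 rose and 5 fell, and of 100 antisense genes 1 rose and 2 fell, against 432 rises and 78 falls among 10934 protein-coding genes. Antisense genes may share reads with their partners, since the strandedness of counting is not given in the sources used here.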
